A study of Mus musculus with 2 samples.

Results

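Axon guidance ligands and receptors were followed through 1 RNA library and 1 chromatin accessibility (ATAC) library of mouse brain. The genes were chosen by name alone: the Eph receptors and their ephrins, semaphorins of classes 3 to 7, plexins, neuropilins, Robo receptors and Slit ligands, netrins, the Unc5 receptors and Dcc. This gave 69 genes, 34 receptors and 35 ligands, of the 32285 genes of the count matrix. Both libraries came from brain tissue of C57BL/6 mice at E18.5 that were homozygous for a Ctcf mutation, labelled CTCF-R567W and made with CRISPR/Cas9. CTCF is the zinc finger protein that binds insulator sequences and anchors chromatin loops. Every value below therefore comes from mutant tissue, with 1 library per assay and none from wild-type tissue, so no effect of the mutation and no replicate spread could be measured. Intervals are 95% intervals and cover counting error only.

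The assay, SPARC-seq, reads RNA and open chromatin from shared barcodes. Each barcode joined 2 segments of 8 bases, and each segment was 1 of the same 50 sequences, so the barcodes were read as a grid of spots that may each hold several cells. After filtering, 1992 spots remained, with 8711132 unique molecular identifiers (UMIs, counts of captured RNA molecules), 907 to 12442 per spot, and 46993860 ATAC fragments, 5759 to 87572 per spot. The second barcode segment divided the spots into sets called strips here, which were numbered 1 to 50 in alphabetical order of their sequence. Of these, 46 had at least 10 kept spots. They are parts of the same libraries and are no replicates. The 10 neuron genes of a marker list (Stmn2, Tubb3, Map2 and others) were all detected and summed to 5064 CPM (UMIs per 1000000 UMIs). A list of 12 skeletal muscle genes summed to 5394 CPM, so the tissue labelled brain also carried RNA of muscle, and fewer cells of a type could not be told apart from less RNA per cell.

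A growing axon is steered at its tip by ligands that attract or repel it. Ephrins are bound to the membrane of neighbouring cells and act on Eph receptor kinases, and most secreted class 3 semaphorins act through a neuropilin that carries a plexin as the signalling partner. Slit proteins repel through Robo receptors, and netrin 1 attracts through Dcc and repels through Unc5 receptors. Many of the same proteins act outside the nervous system, for example Ephb4 with ephrin B2 in veins and arteries and Plxnd1 with Sema3e in growing vessels.

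The promoters at the ends of the accessibility range are shown first, because they show how far the accessibility of these genes ranged. They are RefSeq promoters of build GRCm38.p6, from 250 bases before to 50 bases after the start site, written 5′ to 3′ with CG dinucleotides in capitals. The first pair had the most ATAC fragments near the start site and the second pair the fewest.
Ephb3, chr16:21204545-21204844, plus strand: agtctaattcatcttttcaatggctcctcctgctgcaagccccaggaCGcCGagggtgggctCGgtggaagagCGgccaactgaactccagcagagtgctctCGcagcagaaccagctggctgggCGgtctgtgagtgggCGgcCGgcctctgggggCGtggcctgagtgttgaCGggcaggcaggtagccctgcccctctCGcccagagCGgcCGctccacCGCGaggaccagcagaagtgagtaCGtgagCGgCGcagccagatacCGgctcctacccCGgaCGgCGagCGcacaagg
Sema6c, chr3:95160170-95160469, plus strand: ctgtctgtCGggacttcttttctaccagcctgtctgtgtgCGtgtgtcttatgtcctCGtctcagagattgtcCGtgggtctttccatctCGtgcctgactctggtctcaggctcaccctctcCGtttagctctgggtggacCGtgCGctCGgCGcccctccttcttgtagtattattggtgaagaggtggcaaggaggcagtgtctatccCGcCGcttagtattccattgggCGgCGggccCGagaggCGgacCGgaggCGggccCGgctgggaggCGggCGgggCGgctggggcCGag
Sema3a, chr5:13396534-13396833, plus strand: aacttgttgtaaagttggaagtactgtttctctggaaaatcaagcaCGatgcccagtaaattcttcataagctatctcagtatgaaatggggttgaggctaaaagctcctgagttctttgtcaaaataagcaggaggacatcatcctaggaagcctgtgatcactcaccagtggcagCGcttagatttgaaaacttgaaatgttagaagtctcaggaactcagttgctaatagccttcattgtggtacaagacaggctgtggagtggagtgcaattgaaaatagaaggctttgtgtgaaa
Ntn5, chr7:45683772-45684071, plus strand: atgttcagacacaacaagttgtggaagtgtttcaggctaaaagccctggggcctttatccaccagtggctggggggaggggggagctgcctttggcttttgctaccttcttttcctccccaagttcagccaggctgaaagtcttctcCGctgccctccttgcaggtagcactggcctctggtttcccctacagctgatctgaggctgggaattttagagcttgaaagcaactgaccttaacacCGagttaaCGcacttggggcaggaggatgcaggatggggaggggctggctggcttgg
The promoter of Ephb3, a receptor of ephrin B ligands, held 23 CG dinucleotides and 2 matches to GGGCGG, the binding sequence of Sp1-type factors. The promoter of the transmembrane semaphorin Sema6c also held 23, with 3 matches. The promoter of Sema3a, a secreted repellent, held 2 and that of the netrin Ntn5 held 3, both without a match to GGGCGG. The printed Sema3a site had 34 fragments, while another annotated start site of this gene, 2.21 kb away, had 161. A second pair had the highest and the lowest share of fragments in muscle-rich strips, described further below, and was chosen after these values had been seen.
Ephb4, chr5:137349859-137350158, plus strand: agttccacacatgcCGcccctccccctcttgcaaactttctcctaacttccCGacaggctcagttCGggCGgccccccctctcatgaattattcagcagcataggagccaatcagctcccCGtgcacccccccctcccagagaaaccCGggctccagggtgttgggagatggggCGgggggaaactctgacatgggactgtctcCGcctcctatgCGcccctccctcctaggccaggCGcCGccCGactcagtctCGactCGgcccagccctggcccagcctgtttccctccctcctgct
Epha10, chr4:124881535-124881834, plus strand: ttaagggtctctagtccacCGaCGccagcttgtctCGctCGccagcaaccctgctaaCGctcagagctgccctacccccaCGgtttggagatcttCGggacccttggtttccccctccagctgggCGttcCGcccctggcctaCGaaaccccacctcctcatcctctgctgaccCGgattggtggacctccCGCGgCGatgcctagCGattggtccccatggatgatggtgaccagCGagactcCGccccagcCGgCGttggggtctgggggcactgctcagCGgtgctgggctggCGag
These promoters of the Eph receptors Ephb4 and Epha10 held 14 and 21 CG dinucleotides, with 4 and 2 matches to GGGCGG. The Epha10 entry lay 886 bp from the start site used for its fragments, and the other 5 entries printed here lay within 85 bp of theirs.

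Promoter sequences were found for 59 members, and 57 of them lay within 1000 bp of the start site used here. Dcc, Efnb3, Ntn1, Plxna1, Plxna4, Sema3b, Sema3f, Sema6a, Slit1 and Unc5d had no entry. The 57 promoters held a median of 23 CG dinucleotides, from 2 to 56, against a median of 14 over 20214 promoters of protein-coding genes. GGGCGG, searched on both strands, was in 42 of the 57, or 73.7%, against 47.7% of the protein-coding promoters and 35.7% of all 32851 promoters in the table. TATAAA, searched on both strands, was in 2 of the 57, or 3.51%, against 12.2% of the protein-coding promoters. The core consensus of the CTCF motif matched in 0 of the 57 and in 0.455% of the protein-coding promoters. Across the 57 members, the Spearman correlation between CG dinucleotides and promoter fragments was 0.32, a description over genes that share a library and differ in base composition.

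The 69 genes together took 81793 UMIs, 0.939% of the library or 9389 CPM (9325 to 9454). Receptors took 6862 CPM and ligands 2527. All 69 genes had at least 1 UMI. At least 100 UMIs were counted for 57 of them and at least 1000 for 21, while 12 had fewer than 100. The median member had 522 UMIs, against 82 for the 21702 protein-coding genes with a start site. The genes with most UMIs were also long. The Spearman correlation between UMIs and length of the gene body was 0.70 over the 69 members and 0.26 over 10297 protein-coding genes with at least 100 UMIs. The 69 include the 12 members under 100 UMIs, so these values are not like for like. UMIs and CPM are therefore given below as counts of the library, and levels of genes or families were ranked per kb of exons or per kb of gene body. The order differed between these scales. Per kb of exons Efna5 came first with 870 UMIs, followed by Dcc with 689 and Ephb1 with 615. Per kb of gene body Efnb3 came first with 166 UMIs and Sema4g second with 79.9, while Dcc, whose gene body spans 1097 kb, came 35th of 69 with 8.27. The sources used here do not say whether reads within introns were counted.

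**Figure D1:**
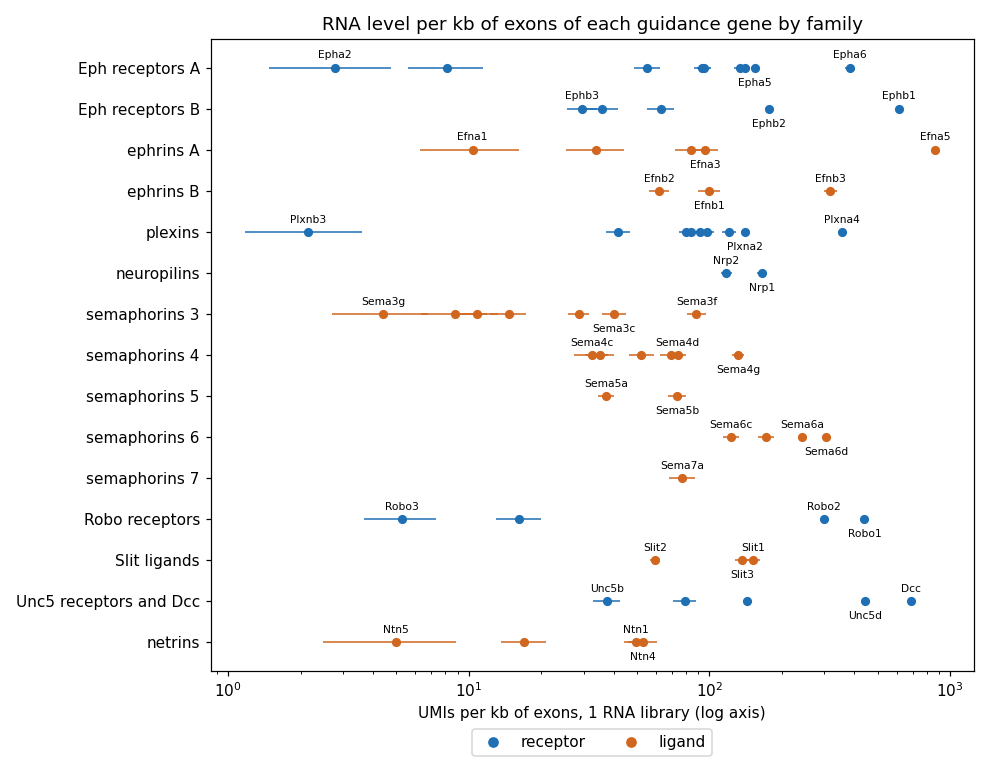
UMIs per kb of exons (log axis) of each of the 69 genes, 1 row per family, receptors in blue and ligands in orange, with 95% Poisson intervals that cover counting error only. The genes ranged from 2.16 UMIs per kb for Plxnb3 to 870 for Efna5.

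Among the netrin receptors, Dcc, the attractive receptor, gave 9077 UMIs and was seen in 96.0% of spots. Unc5d gave 4094 UMIs and Unc5c 2732, and these 2 repulsive receptors were seen in 82.3% and 68.0% of spots. Unc5a and Unc5b had 330 and 235 UMIs. The 5 receptors summed to 1890 CPM. The 4 netrins summed to 69.8 CPM. Per kb of exons the median netrin had 33.4 UMIs and the median receptor 143, and per kb of gene body they had 1.74 and 7.15. Ntn1, the ligand of Dcc, had 312 UMIs and was seen in 14.1% of spots, Ntn4, a netrin of basement membranes, had 198, Ntn3 had 87 and Ntn5 had 11. An annotated gene on the same strand overlapped Ntn1 and Ntn3, which could share their reads.

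Among the receptors of Slit ligands, Robo1 gave 7289 UMIs and Robo2 5078, in 92.8% and 86.1% of spots. Per kb of exons they stood at 441 and 299 UMIs. Robo3, which acts in commissural axons before they cross the midline, had 36 UMIs, and Robo4, a receptor of endothelial cells, had 86. The 3 ligands were closer to each other. Slit2, Slit1 and Slit3 had 1510, 899 and 833 UMIs, or 59.4, 152 and 137 per kb of exons. An annotated gene on the same strand overlapped Slit2 and Slit3, which could share their reads.

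Eph receptors of class A, which bind ephrins held by a lipid anchor, summed to 1022 CPM over 9 genes. Epha5 gave 2595 UMIs and Epha6 2031, while Epha1 and Epha2 gave 32 and 13. Per kb of exons Epha6 was higher, with 384 UMIs against 155. Eph receptors of class B, which bind the transmembrane ephrins, summed to 819 CPM over 5 genes, and Ephb1 with 4304 UMIs and Ephb2 with 2231 held most of them. Ephb6, Ephb3 and Ephb4 had 238, 197 and 166. Ephb1 overlapped another annotated gene on its strand. Of the ephrins A, Efna5 gave 3507 of 3992 UMIs, while Efna3 gave 233 and Efna1 gave 19. Of the ephrins B, Efnb3 gave 1013, Efnb2 424 and Efnb1 344 UMIs.

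The plexins summed to 1351 CPM over 9 genes. Plxna4 gave 5025 UMIs, Plxna2 gave 2416 and Plxnb3 gave 14, while the other 6 gave 304 to 932. The neuropilins Nrp1 and Nrp2, the binding partners for class 3 semaphorins, had 1624 and 1390 UMIs, or 166 and 117 per kb of exons. The membrane-bound semaphorins of class 6 include Sema6d and Sema6a, which had 3234 and 2133 UMIs, and the 4 class 6 genes summed to 778 CPM. The 6 class 4 genes summed to 311 CPM, the 2 class 5 genes to 139.8 and the secreted class 3 genes to 165, the last spread over 7 genes from 20 UMIs (Sema3g) to 459 (Sema3f). Per kb of exons the median gene had 14.6 UMIs in class 3, 60.8 in class 4, 55.5 in class 5 and 207 in class 6. Per kb of gene body these medians were 1.60, 12.2, 2.88 and 27.7.

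Promoter accessibility was counted as the ATAC fragments that overlapped 1 kb on each side of the start site. The members had a median of 272 fragments against 159 over 21702 protein-coding genes, and 56 of 69 lay above that median. Their median percentile among protein-coding genes was 69.1. A deposited peak lay at the promoter of 60 members, against 62.7% of the protein-coding genes. Among genes with at least 100 promoter fragments it was 59 of 65 members, against 93.6%. Receptors had a median of 296.5 fragments and ligands 229. Ephb3 came first with 991 fragments (percentile 98.5), at 197 UMIs. Sema6c followed with 604, Epha7 with 576, Sema6a with 575 and Efnb2 with 573. The fewest were found for Sema3a with 34 (percentile 18.1), Ntn5 with 83, Plxnb3 with 87 and Robo3 with 93. For Sema3a another annotated start site, 2.21 kb away, had 161 fragments, and 8 members had such a site with more fragments over 1 kb away. Dcc, which had the most UMIs, had 202 promoter fragments (percentile 57.5). The Spearman correlation between UMIs and promoter fragments was 0.41 over the 69 members and 0.12 over the 10297 protein-coding genes with at least 100 UMIs. Here too the 69 include 12 members under 100 UMIs, so the difference was not read as particular to the members.

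**Figure D2:**
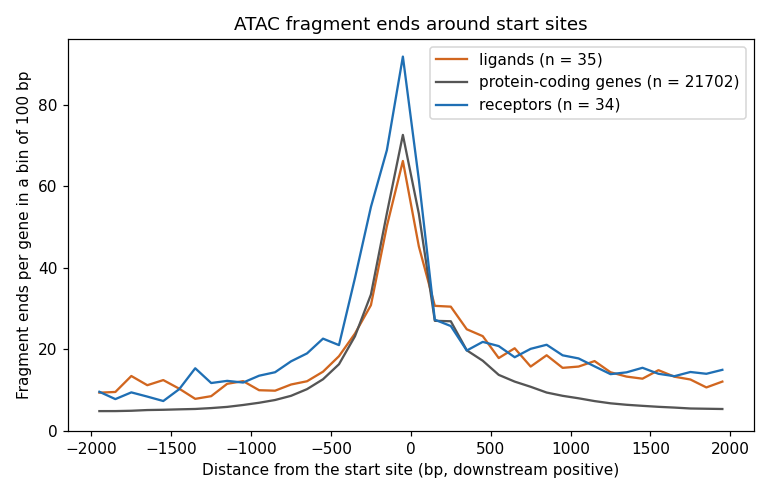
ATAC fragment ends per gene in bins of 100 bp against the distance from the start site in bp (downstream positive), for 34 receptors, 35 ligands and 21702 protein-coding genes. The bin just before the start site held 91.8 ends per receptor gene and 66.2 per ligand gene.

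The profile of fragment ends showed a peak just upstream of the start site in receptors, ligands and all protein-coding genes. In the bin just before the start site the protein-coding genes had 72.6 ends per gene, above the ligands and below the receptors. In the bin centred 250 bp upstream, receptors had 54.9 ends per gene, ligands 30.8 and protein-coding genes 33.4. In the bin centred 250 bp downstream receptors had 25.7, ligands 30.5 and protein-coding genes 26.9.

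The spread of each gene over the 46 strips was measured as an index of dispersion, the chi-square of its UMIs over strips divided by the degrees of freedom, which is near 1 where only counting error acts. An index of 2 or more was reached by 12 of the 57 members with at least 100 UMIs, against 11.1% of the 10692 genes of that depth. The index grows with the UMI count, and all 12 were among the 21 members with at least 1000 UMIs, where 30.1% of 1823 genes reached it. With strips formed by the first barcode segment only Dcc (2.98) and Sema6a (2.17) reached it, against 1.06% of all genes with at least 100 UMIs. The other 10 then lay between 0.980 and 1.71. Over strips of the second segment, the median index of the 21 members with at least 1000 UMIs was 2.03 against 1.61 over the 1823 genes. Dcc had the highest index of the members, 6.58, and its spread beyond counting error had a coefficient of variation of 16.6%. Among the members with at least 1000 UMIs this coefficient was higher for Epha7 (22.5%), Nrp2 (22.4%), Epha5 (21.7%) and Unc5c (21.7%), so Dcc did not vary most on that scale. Their median was 14.5%, against 12.0% over the 1823 genes. Over all 57 members the coefficient ran from 0 to 42.7%, with a median of 15.1% against 18.1% over the 10692 genes. By the index, Unc5c, Epha5 and Robo2 followed Dcc with 3.84, 3.71 and 3.26. Efna5, Epha7, Nrp2, Sema6d, Ephb1, Robo1, Sema6a and Plxna4 had an index of 2.02 to 2.73.

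Dcc ranged over the strips from 738 to 1540 CPM, with a median of 1012. The lowest was strip 35, which held the fewest UMIs (29800 in 12 spots), and the highest was strip 45 (191602 UMIs in 47 spots). Over the 46 strips the level of Dcc was negatively correlated with a list of 12 hindbrain and spinal cord genes (mainly Hox genes; Spearman correlation -0.57), whose sum was only 37.9 CPM. These strips share 1 library, and UMI totals differ between them. Each gene was correlated with several marker lists, only some of the values are printed here, and none is given over all genes. Unc5c ranged from 173 to 487 CPM with a median of 304, and Epha5 from 158 to 500.7 with a median of 287. The level of Epha5 was correlated with the neuron list (Spearman correlation 0.57) and negatively with the muscle list (Spearman correlation -0.62). Robo2 ranged from 461 to 1040 around 570. Its highest strip was strip 35, the lowest for Dcc. Nrp2 ranged from 79.6 to 341 around 173, and Efna5 from 241 to 665 around 399.

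**Figure D3:**
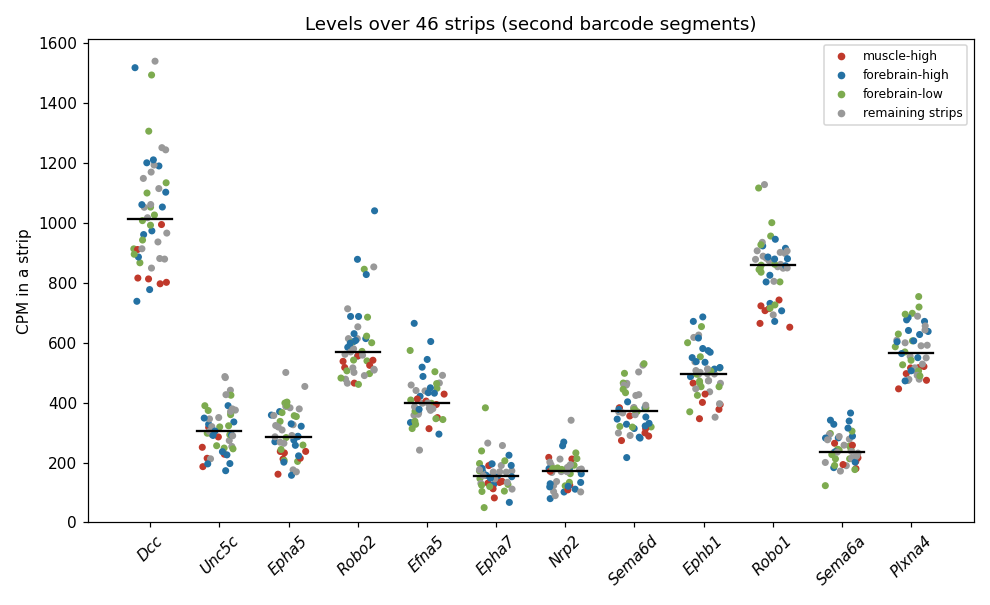
CPM in each of the 46 strips for the 12 genes with an index of dispersion of 2 or more, points coloured by the group of the strip and a bar at the median. Dcc ran from 738 to 1540, and its 6 muscle-high strips lay between 797 and 994.

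The RNA of a gene and its chromatin were also set side by side over the 46 strips, with fragments over the gene body and 2 kb upstream. The median Spearman correlation was 0.08 over the 57 members with at least 100 UMIs, and 0.04 over 10283 protein-coding genes of that depth. It lay within 0.2 of 0 for 43 of the 57, against 7679 of the 10283, and above 0.3 for 10, against 811 of the 10283. The 5 highest, named for their values, were 0.58 for Ephb1 and for Sema4f, 0.44 for Slit3, 0.40 for Epha5 and 0.36 for Dcc, and the lowest was -0.40 for Sema6b. The sets were matched only by the minimum of 100 UMIs and not by UMI count or gene length, so these shares were not read as particular to the members. All these values are descriptions over strips of the same libraries.

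The muscle list separated 6 strips from the rest, with 10572 to 15387 CPM in them and 3117 to 5691 in the other 40. These 6 muscle-high strips held 279 spots, 1504383 UMIs and 11030381 ATAC fragments. The others held 1707 spots, 7196476 UMIs and 35920537 fragments. No member is on the list. A ratio of CPM of at least 1.5 either way, with at least 100 UMIs, was taken as a call. Other lists moved too. The connective tissue list was 2.73 times as high in the muscle-high strips, with all 10 genes above 1, and the epithelium list 6.18 times, or 3.65 times without strip 33, while the neuron list was at 0.688, with 0 of 10 genes above 1. The hindbrain and cord list was at 1.41 (1.07 to 1.83), the choroid plexus list at 0.625 (0.589 to 0.662), the pituitary list at 0.749 (0.650 to 0.860), the forebrain list at 0.867 (0.787 to 0.952) and the erythroid list at 1.08 (1.06 to 1.10), the last at 0.987 without strip 8. Genes above 1 were 7 of 12 for hindbrain and cord, 2 of 4 for choroid plexus and 2 of 7 for pituitary. They were 3 of 12 for forebrain and 5 of 5 for erythroid. The endothelial and mural list was at 1.05 (0.948 to 1.15), with 4 of 7 genes above 1. The part of these lists in the ratios below was not tested.

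Of 57 members tested, 4 were higher in the muscle-high strips, against 8.91% of 10687 genes. These were Plxnd1, Ephb4, Sema3a and Ephb3. Another 5 were lower, against 6.86% of the 10687, namely Epha8, Sema4f, Efna3, Efnb3 and Sema7a. Both shares lay near their background. Several of the calls depended on how the groups were formed. Ephb3 was at 1.43 with 4 muscle-high strips and at 1.46 with 8, Efnb3 at 0.726 with 4 and Efna3 at 0.676 with 8, all short of a call, and Efna3, Sema7a and Efnb3 each lost it when 1 strip was left out. With groups of single spots in place of strips, Sema3a (1.43), Ephb3 (1.38), Efna3 (0.675), Sema7a (0.764) and Efnb3 (0.683) lost their call, and strips formed by the first barcode segment gave 0 calls. The muscle contrast of those first-segment strips is not given here. The median index of dispersion of the 57 members was 1.13 over them, against 1.52 over strips of the second segment. The median ratio of the members was 0.852 and that of all tested genes 0.972. The counting interval lay above 1 for 8 of the 57 members, against 14.3% of the 10687 genes, and below 1 for 23, against 17.2%, and such intervals are narrower for genes with more UMIs.

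Plxnd1, a plexin of vessels and of some neurons (chr6:115954811-115995005), had 22.5 to 77.5 CPM in the 6 muscle-high strips, median 55.1, and 0 to 68.3 in the other 40, median 31.4. The ranges overlapped, with 11 of the 40 below the lowest muscle-high strip and 0 above the highest. Its ratio was 1.71 (1.31 to 2.21). Ephb4, the venous receptor of ephrin B2, had 9.21 to 45.6 CPM in the muscle-high strips, median 28.5, and 0 to 47.8 in the others, median 14.2. Its ratio was 1.67 (1.15 to 2.38), on 43 and 123 UMIs. Ephb3 had 18.4 to 38.0 CPM, median 34.4, against 0 to 53.8, median 17.5, and a ratio of 1.59 (1.13 to 2.22).

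Sema3a, a secreted repellent that also acts in bone, had 55.3 to 82.0 CPM, median 63.5, in the muscle-high strips and 5.17 to 78.8 CPM, median 42.4, in the others. Of the other 40 strips, 34 lay below the lowest muscle-high strip and 0 above the highest. Its ratio was 1.63 (1.28 to 2.05), on 101 and 297 UMIs. The other secreted semaphorins of class 3 had ratios of 1.45 (Sema3f), 1.41 (Sema3c) and 1.47 (Sema3e), none of which reached 1.5. Sema3d, Sema3b and Sema3g had fewer than 100 UMIs, with ratios of 2.17, 1.91 and 0.844. The 7 genes summed to 183 to 337 CPM in the muscle-high strips and to 67.1 to 236 in the others, and 36 of the 40 others lay below the lowest muscle-high strip. The ratio of the sum was 1.54 (1.36 to 1.74), and this sum was formed after the values of its genes had been seen. When the 4 strips with most muscle RNA were taken in place of 6, it was 1.22. That choice moved strips 19 and 33 from the muscle-high group to the other strips. Of the 6, strip 19 had the highest connective tissue list (5670 CPM) and strip 33 the highest epithelium list (788 CPM). The part of these lists in the sum was not tested. With strips formed by the first barcode segment the sum was 0.953 and Sema3a was at 0.976, so both lay below 1. The muscle contrast of those strips is not given here, so no conclusion on direction was drawn from them. The membrane-bound class 4, by comparison, was at 0.733 (0.654 to 0.819), with 0 of 6 genes above 1, and class 6 at 0.869 (0.812 to 0.928), with 0 of 4. Over all tested genes 45.6% lay above 1.

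Epha8, an Eph receptor of the developing midbrain, had the lowest ratio of the members tested, 0.509 (0.323 to 0.770). It had 9.21 to 19.6 CPM in the muscle-high strips, median 17.9, and 6.29 to 112 in the others, median 30.6, so that 30 of 40 lay above the highest muscle-high strip. Sema4f, a membrane-bound semaphorin, had 16.4 to 41.0, median 25.3, against 0 to 83.5, median 46.9, and a ratio of 0.587 (0.412 to 0.817). Efna3, a ligand of the class A receptors, had a ratio of 0.627 (0.403 to 0.939), and Sema7a, a semaphorin with a lipid anchor, one of 0.641 (0.422 to 0.940). Efnb3, a midline ephrin, had 52.4 to 146 CPM, median 67.9, against 56.9 to 203, median 123, and a ratio of 0.637 (0.522 to 0.773).

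None of the 10 receptors with most UMIs reached the fold of 1.5, and 9 of them lay below 1. Dcc was at 797 to 994 CPM in the muscle-high strips, median 814, and at 738 to 1540 in the others, median 1052. Its ratio was 0.795 (0.749 to 0.844). Robo1 was at 0.812, and 34 of the other 40 strips lay above its highest muscle-high strip and 0 below its lowest. Robo2 was at 0.884, Plxna4 at 0.836, Ephb1 at 0.786, Unc5d at 0.770, Unc5c at 0.760, Epha5 at 0.682 and Plxna2 at 0.812, while Ephb2 was at 1.02. Summed over all 34 receptors, the muscle-high strips had 5629 to 6199 CPM and the others 6038 to 8133, a ratio of 0.835 (0.816 to 0.854). The ligands were at 0.928 (0.895 to 0.962). Both ratios lay closer to 1 than that of the neuron list. The neuropilins and the Slit ligands had summed ratios of 0.976 (0.885 to 1.07) and 1.08 (0.982 to 1.18).

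**Figure D4:**
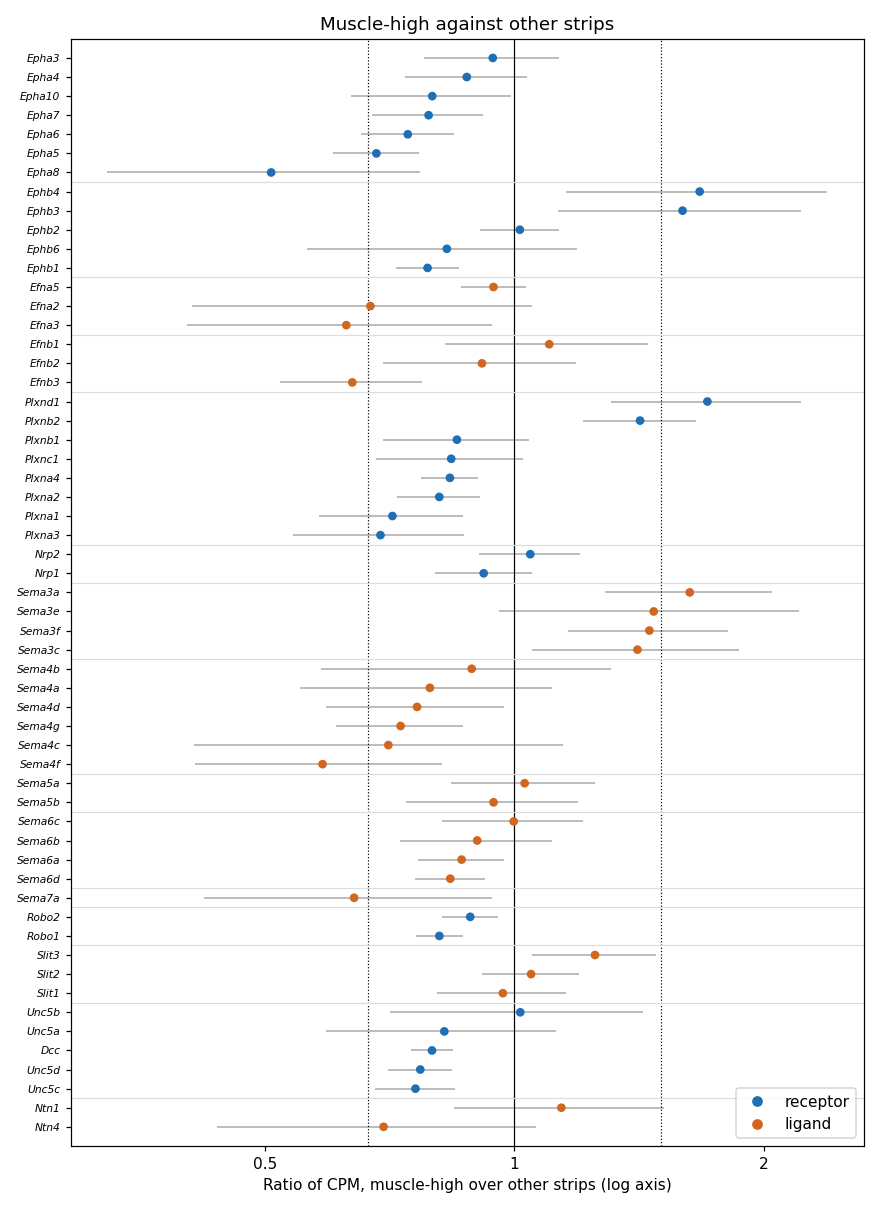
Ratio of CPM in the 6 muscle-high over the other 40 strips (log axis) for the 57 genes with at least 100 UMIs, grouped by family, with 95% conditional binomial intervals that cover counting error only. The dotted lines mark the fold of 1.5 either way, which 4 genes passed upwards and 5 downwards.

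Accessibility of the same strips took no part in choosing them. Over all members the promoter fragments, per 1000000 promoter fragments, had a ratio of 1.01 (0.974 to 1.04), beside an RNA ratio of 0.860 (0.843 to 0.876). The direction of the accessibility ratio depended on the window and the scaling, since it was 0.944 (0.936 to 0.953) over gene bodies and 2 kb upstream and 1.09 (1.05 to 1.12) for promoters per 1000000 of all fragments. Single genes differed. At the promoter of Ephb4, printed above, 163 fragments in the muscle-high strips and 203 in the others gave a ratio of 2.42 (1.96 to 2.99), and at that of Plxnd1 97 and 153 gave 1.91 (1.47 to 2.48). The promoter of Ephb3, with 244 and 744 fragments, was at 0.990 (0.853 to 1.15) although its RNA was called. That of Sema3a had only 34 fragments in all and a ratio of 0.928 (0.363 to 2.11). The class 3 promoters summed to 1.30 (1.14 to 1.49) and the class 4 promoters to 0.863 (0.763 to 0.974).

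Among the lower genes, Sema4f had a promoter ratio of 0.449 (0.314 to 0.627) and Efna3 of 0.639 (0.467 to 0.860). Those of Epha8, Efnb3 and Sema7a were 0.859, 0.794 and 0.826, with intervals that held 1. The lowest promoter ratio of the members with at least 100 fragments belonged to Epha10, printed above, with 27 and 344 fragments and a ratio of 0.237 (0.154 to 0.351). Its RNA was at 0.796 (0.634 to 0.989). Plxnc1 was at 0.319 for the promoter and 0.839 for RNA, and Slit1 at 0.386 and 0.968. Over 56 genes with both ratios, 12 were above 1 in both, 28 below 1 in both, 13 above 1 for the promoter alone and 3 for RNA alone. The Spearman correlation was 0.54, a description over genes that share both libraries. Neither the tally nor the correlation is given over all genes, so they were not read as particular to the members.

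**Figure D5:**
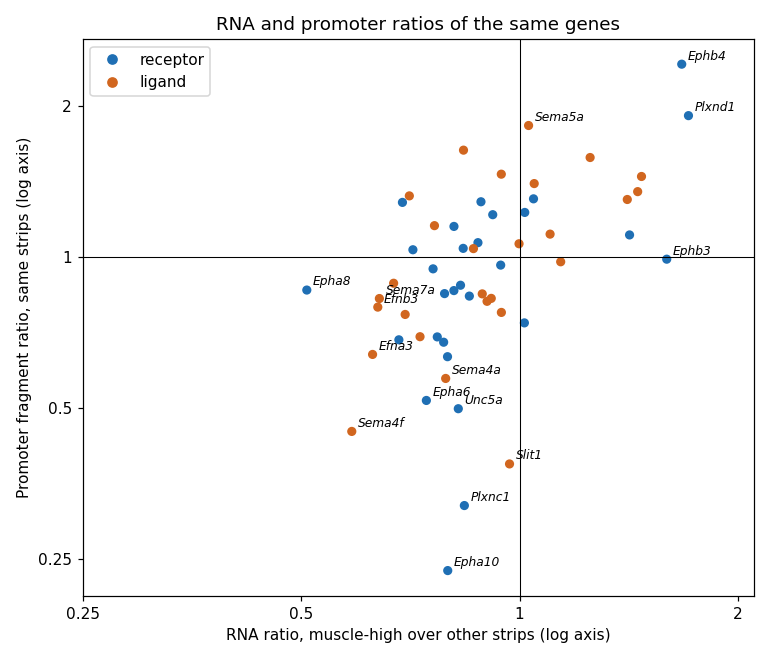
RNA ratio (horizontal, log axis) and promoter fragment ratio (vertical, log axis) of muscle-high over other strips for 56 genes, receptors in blue and ligands in orange. Ephb4 and Plxnd1 lie at the upper right with promoter ratios of 2.42 and 1.91, and Epha10 lies lowest at 0.237.

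Outside the muscle-high strips, the 12 strips with the highest level of a list of 12 forebrain transcription factor genes (433 to 679 CPM) were set against the 12 with the lowest (253 to 326). The list was 1.99 times as high in the first group by construction, with 9 of its 12 genes above 1. The strips just outside these groups had 409 and 326 CPM, so the lower limit cut through closely spaced values. Other marker lists moved as well. In the forebrain-high strips the hindbrain and cord list was at 0.494 (0.333 to 0.722). The neuron list was at 0.964 (0.939 to 0.990), with 2 of its 10 genes above 1. The microglia and macrophage list was at 1.37 (1.10 to 1.71) and the erythroid list at 1.18. The connective tissue list was at 1.22, but at 1.09 (1.03 to 1.15) without strip 35. The choroid plexus list was at 0.447, but at 0.834 (0.774 to 0.898) without strip 30, and the pituitary list at 0.475, but at 1.20 (0.969 to 1.48) without strip 25. Genes above 1 were 2 of 12 for hindbrain and cord, 4 of 5 for microglia and macrophage and 9 of 10 for connective tissue. They were 4 of 5 for erythroid, 2 of 4 for choroid plexus and 1 of 7 for pituitary. The part of these lists in the ratios was not tested. Of 51 members tested, 0 were higher by the fold of 1.5, against 1.38% of 7612 genes, and 1 was lower, against 1.3%. The median ratio was 1.04 for the members.

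The lower gene was Unc5b, a netrin receptor found in vessels and some neurons (chr10:60762593-60831581). It had 0 to 67.1 CPM in the forebrain-high strips, median 16.1, and 15.9 to 53.6 in the forebrain-low strips, median 28.4. Its highest value was in strip 35, which held the fewest UMIs of the tested strips (29800 in 12 spots). The ranges overlapped fully, and the ratio of 0.590 (0.384 to 0.893) rested on 37 and 68 UMIs. Leaving out any of 8 strips took it below 100 UMIs, and with 8 strips against 8 it was at 0.668 (0.385 to 1.14) and no longer called. Its promoter ratio was 0.889 (0.630 to 1.25). The counting interval lay below 1 for 7 of the 51 members, against 6.31% of the 7612 genes, and above 1 for 6, against 6.08%. The former were Unc5b, Slit2, Slit3, Nrp2, Sema6d, Sema4g and Unc5c, and the latter Efna5, Ephb1, Robo2, Sema6a, Efnb1 and Efnb2. The Slit ligands summed to a ratio of 0.806 (0.726 to 0.895), with Slit2 at 0.735 (0.625 to 0.862). Nrp2 was at 0.752 (0.640 to 0.883), and its promoter at 0.645 (0.421 to 0.968), the only promoter ratio of these 13 genes with an interval that excluded 1. The promoter ratio lay on the same side of 1 as the RNA for 9 of them and on the other side for Sema6d, Unc5c, Robo2 and Efnb2. No such tally over all genes is given here. Sema6d was at 0.816 (0.736 to 0.904) and Unc5c at 0.833 (0.743 to 0.932). On the other side, Ephb1 was at 1.18 (1.08 to 1.28), Robo2 at 1.19 (1.10 to 1.29) and the ephrins A at 1.19 (1.09 to 1.30), a sum in which Efna5 holds most UMIs. Dcc was at 1.04 (0.976 to 1.10). Intervals of this kind are narrower for genes with more UMIs and leave out the spread between strips.

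A list of 60 other genes of the pathway, chosen by function (coreceptors, adhesion partners and signalling genes downstream of the receptors), was followed in the same strips. All 60 were in the matrix. In the muscle-high strips 2 of 57 tested were higher and 3 lower, against 8.91% and 6.86% of all tested genes. Dock1, an activator of Rac, was at 1.80 and Boc, a Hedgehog coreceptor, at 1.60 (1.19 to 2.13). Gap43, a growth cone protein, was at 0.533 (0.486 to 0.583), Dpysl4, a collapsin response protein, at 0.529 (0.397 to 0.695) and Flrt3, an adhesion partner of Unc5 receptors, at 0.582 (0.390 to 0.842). In the forebrain comparison 1 of 56 was higher, the adhesion molecule Cntn2 with 1.57 (1.32 to 1.87), and 0 were lower, against 1.38% and 1.3% of all tested genes. An index of dispersion of 2 or more was found for 12 of 57, against 11.1% of all genes with at least 100 UMIs. Among the 32 genes of the list with at least 1000 UMIs it was found for 11, near the 30.1% of all genes of that depth. The median muscle ratio of the list was 0.890, against 0.972 over all tested genes.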

How the data were processed

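The authors deposited raw counts: per the file headers, cellranger-arc 2.0.1 and an mm10 (GRCm38) reference gave UMI counts per gene and cut-site counts per peak for 1993 barcodes, and counts of read pairs per ATAC fragment for 2500 barcodes. The submitters' processing notes also name Seurat 4.0. How matrix barcodes were chosen is not given in the sources used here. The spot filter required 500 to 6000 genes and allowed up to 20% of UMIs from mitochondria. Start sites came from GENCODE M21, taking for each gene the principal transcript that begins furthest upstream. Levels are CPM, UMIs per 1000000 UMIs of kept spots, with exact Poisson intervals. Ratios have conditional binomial intervals. With 1 library per assay no test was possible, and differences are described by a fold of 1.5 and at least 100 UMIs. Genes are named as the 2 with most and the 1 with fewest UMIs per family and all called members. Other genes named by dispersion, promoter level or promoter ratio were chosen after their values were seen, and members on chromosome 18 were passed over for printed sequences. Members and lists were chosen with earlier results of these data known. The ratio step was checked on simulated data. No column of another sample was present. Analyses used Python 3.11.15, NumPy 2.4.6, SciPy 1.17.1 and pandas 2.3.3.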

Additional observations from a re-analysis of the deposited data

Results flagged for a closer look

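Promoter fragments of the guidance genes were also present in the 507 barcodes of the fragment file that have no counts in the matrix. These barcodes held 5833396 fragments, of which 1564 overlapped a promoter of a member, or 268 per 1000000 fragments, against 426 in the kept spots. All 69 members had at least 7 such fragments there, and the highest had 71. Neither the rate nor the counts are given over the promoters of all genes, so they were not read as particular to the members.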

How the results depend on the processing

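Over 67 settings, 426 values of 36 results were recomputed, of which 341 kept direction and call, 44 kept direction and lost the call, 38 moved and 3 reversed. Among the latter, the pituitary list in the forebrain comparison was at 1.20 without strip 25 and at 0.438 to 1.20 over all strips left out in turn, an alternative added after seeing the data. With mitochondrial genes out of the total, the members summed to 9458 CPM. A window of 500 bp put the median promoter percentile at 62.9. With an index of 1.5, 31 members were dispersed, against 34.1% of all genes. With an index of 2 over strips by the first barcode segment, 2 members were dispersed, against 1.06%. In the muscle comparison, a fold of 2 gave 0 higher and 0 lower, a minimum of 200 UMIs gave 2 higher, groups of spots in place of strips gave 3 lower, and strips by the first segment gave 0 higher and 0 lower. There Sema3a was at 0.976 and the class 3 sum, added after seeing the data, at 0.953. Both were reversed, in strips whose muscle contrast is not given here. Leaving out 1 of the 6 muscle-high strips at a time gave 4 to 6 higher and 4 to 8 lower, with 8 lower without strip 19. In the muscle and forebrain comparisons, counts of calls under other settings stand without the share of all genes. They show only how the calls depended on the setting. Efna3 lost its call without strip 8, Sema7a without strip 4 or 16 and Efnb3 without strip 18. With 4 muscle-high strips 3 were higher and 7 lower, and with 8 strips 3 and 6. In the forebrain comparison, a minimum of 50 UMIs gave 3 higher and 2 lower, 8 strips against 8 gave 2 lower, of which Unc5b (0.668) was none, strips by the first segment gave 1 higher and 0 lower, with Unc5b at 0.916, and a fold of 2 or a minimum of 200 UMIs gave 0 lower. Leaving out 1 strip gave 0 to 1 higher (1 without strip 25) and 0 to 1 lower. With 1 strip left out Unc5b was between 0.542 and 0.646 but fell under 100 UMIs without strip 3, 9, 11, 21, 43, 44, 46 or 50. The promoter ratio of all members in the muscle comparison was 0.944 over gene bodies and 1.09 per 1000000 of all fragments. For the other pathway genes a fold of 2 gave 0 higher and 0 lower in the muscle comparison and 0 higher in the forebrain comparison. Where not given, the cause was not tested. A gene with 100 UMIs has 2.17 UMIs per strip on average, which limits values per strip. No paired analysis was possible because each group has 1 sample.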
